A study of Mus musculus with 10 samples.

Results

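The genes described here carry glucose into the cell and through glycolysis, the pentose phosphate pathway and glycogen storage. A fixed list of 35 genes was taken, and each gene was read from a probe set that names no other gene, the one with the highest mean where a gene had several. Of these 35 genes, 31 had such a probe set, among 19938 genes of the array that did, and 29 of the 31 lay high enough to be tested. Gpi1, Eno1 and G6pdx have none, so the isomerase step, the main enolase and the first pentose phosphate enzyme were not analysed here. Gapdh is named only by 25 probe sets that it shares with other Gapdh-like genes. Ldhb and Pdk1 were left untested because only 1 array each exceeded 8.18 (log2), the overall median signal.

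The cells are described as neutrophils from the bone marrow of female C57bl/6 mice 10 weeks old. They were enriched on a Percoll density gradient after red cells had been lysed. Levels of Xist, which bear on the stated sex, are given below. In 4 groups, the unstimulated wild type and the unstimulated lcn2 knockout had 3 arrays each, and the fMLP stimulated wild type and the fMLP stimulated lcn2 knockout had 2 each. Stimulation was with fMLP, a formylated peptide of bacterial type that attracts and activates neutrophils, given at 10 micromolar, for 20 minutes in the warmth (37 degrees C). The series asks what lipocalin 2, an iron-carrier-binding granule protein, does in resting and in stimulated neutrophils. The labels give no more on how the knockout was made, and do not say whether replicates were separate animals or whether unstimulated cells were also warmed, so p-values measure only the spread between these arrays. On every array the RNA is a bulk sample, in which fewer cells of a type and less RNA per cell cannot be told apart.

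As background, neutrophils hold few mitochondria and draw most of their energy from glycolysis, ending in lactate that leaves the cell through monocarboxylate transporters. The pentose phosphate pathway supplies the NADPH that the oxidase of activated neutrophils consumes, and glycogen is their internal glucose store. Several steps have alternative isoforms encoded by separate genes, which differ in the tissues that use them and in how they are regulated.

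All values below are log2 signals, and a difference of 1 means a doubling of signal. The arrays fall into 2 sets by the spread of their values, and the labels name no batch. Unstimulated replicates 1 and 2 of both genotypes form set 1 (interquartile range 1.64 to 1.68), and the 2 unstimulated replicate 3 arrays and the 4 fMLP arrays form set 2 (2.47 to 2.59). No fMLP array lies in set 1, so fMLP arrays are set against unstimulated replicate 3, and a term for the set stands in the fit. Neutrophil markers were high on every array, with a mean of 10 markers of 12.50 to 13.71. Lcn2 itself was 13.88 to 14.16 on the wild type and 8.09 to 9.60 on the knockout arrays. Xist, an RNA that female cells make from an X chromosome, differed between unstimulated and fMLP arrays. It read 6.88 and 6.94 on the unstimulated replicate 3 arrays and 7.73 to 7.82 on set 1. On the fMLP arrays it read 11.12 and 11.04 (wild type) and 10.97 and 9.83 (knockout). The stated female sex was therefore not borne out by Xist on the unstimulated arrays. Replicate 2 of the fMLP knockout group stands apart. Its 14 neuron markers all lay above those of the other 3 fMLP arrays, with a mean level of 10.64 against 7.27 to 7.29. Differences after fMLP are therefore given from the 9 arrays without it and from all 10 arrays.

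The promoters of 3 genes that passed the test in the 9-array fit are shown because these genes moved in opposite directions. They are the glucose transporter Slc2a1, the lactate exporter Slc16a3 and the glycogen branching enzyme Gbe1. Each window runs from 250 bases before to 50 bases after the gene's start, from RefSeq on GRCm38.p6, read 5′ to 3′ on the + strand. Capitals mark the motif ACGTG on either strand. It is a form of the core of the element that hypoxia-inducible factors bind, and it also lies within the E-box motif searched below.
Slc2a1 at chr4:119108495-119108794: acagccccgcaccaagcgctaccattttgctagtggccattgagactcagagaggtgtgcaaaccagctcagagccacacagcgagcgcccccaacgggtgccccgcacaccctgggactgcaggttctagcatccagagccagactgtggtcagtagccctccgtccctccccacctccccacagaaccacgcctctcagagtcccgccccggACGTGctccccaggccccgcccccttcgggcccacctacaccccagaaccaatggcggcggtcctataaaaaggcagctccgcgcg
Slc16a3 at chr11:120948817-120949116: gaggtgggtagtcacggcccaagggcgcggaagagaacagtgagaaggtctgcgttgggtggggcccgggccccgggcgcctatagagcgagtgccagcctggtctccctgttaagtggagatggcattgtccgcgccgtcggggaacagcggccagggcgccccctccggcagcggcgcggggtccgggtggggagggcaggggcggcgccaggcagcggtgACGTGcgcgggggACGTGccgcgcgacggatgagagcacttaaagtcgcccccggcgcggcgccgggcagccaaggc
Gbe1 at chr16:70313699-70313998: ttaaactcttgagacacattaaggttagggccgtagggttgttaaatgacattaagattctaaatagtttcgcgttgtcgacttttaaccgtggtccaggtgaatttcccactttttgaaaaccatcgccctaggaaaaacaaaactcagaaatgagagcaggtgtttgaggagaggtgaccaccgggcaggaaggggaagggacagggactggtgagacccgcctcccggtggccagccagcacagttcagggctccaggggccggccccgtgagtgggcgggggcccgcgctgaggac
The Slc2a1 window holds the motif once, 36 bases before the start, and the Slc16a3 window holds it at 27 and at 14 bases before the start. The Gbe1 window holds none of the 5 motifs searched on both strands. These were ACGTG, the dioxin response core GCGTG, the E-box CACGTG (which contains the first), the cAMP response element TGACGTCA and the AP-1 site TGANTCA. The Slc2a1 window also holds GCGTG, 61 bases before the start, and the Slc16a3 window does not hold it. Pfkm, the other gene that passed, has 4 windows and is not printed. Of these, 2 hold the first motif and 1 holds the E-box. Of the 29 tested genes, 28 have 39 windows in all, and ACGTG lies in 18 of them (46.2%) against 19.6% of 32851 RefSeq windows of that length. Some windows of the same gene overlap, so a site can be counted more than once. By gene, 15 of the 28 hold ACGTG in at least 1 window. GCGTG lies in 21 of the 39 (53.8%) against 32.4%, while the E-box was found in 4 windows, the cAMP element in 1 (Ldha) and the AP-1 site in 1 (Aldoa), against 7.15%, 1.79% and 7.81% of all. Slc2a3 is the tested gene with no entry. The motif ACGTG was found, and was absent, among genes of either direction in the array-by-array counts below. Of those lower on all 4 fMLP arrays, Hk2, Pgk1, Pgam1 and Pygl hold it, and Rpia, Tkt and Taldo1 do not. Of those higher on the first 3, Hk1, Pkm and Ldha hold it, and Pfkl, Pfkp, Pfkfb4, Tpi1 and Gys1 do not. A match is only a run of letters. The data hold no measure of binding, so nothing about the factors follows from it.

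Most isoforms of these steps gave signal above the array's own background, and those close to it were Aldoc, Ldhb and Pdk1. Levels of different genes come from different probes and were not compared. Each isoform was set against the floor of its own array, the 95th percentile of 1027 olfactory receptor genes, which neutrophils are not known to use. That floor was 7.71 to 7.87 on set 2 and 9.26 to 9.36 on set 1. On the 6 arrays of set 2, 29 of the 31 genes lay above it throughout, on all 10 arrays 13 did, and 16 cleared it on set 2 but not on every array of set 1. The difference between the sets was large next to the responses below. In unstimulated cells it ran from -0.63 for Aldoc to 2.99 for Gbe1.

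**Figure D1:**
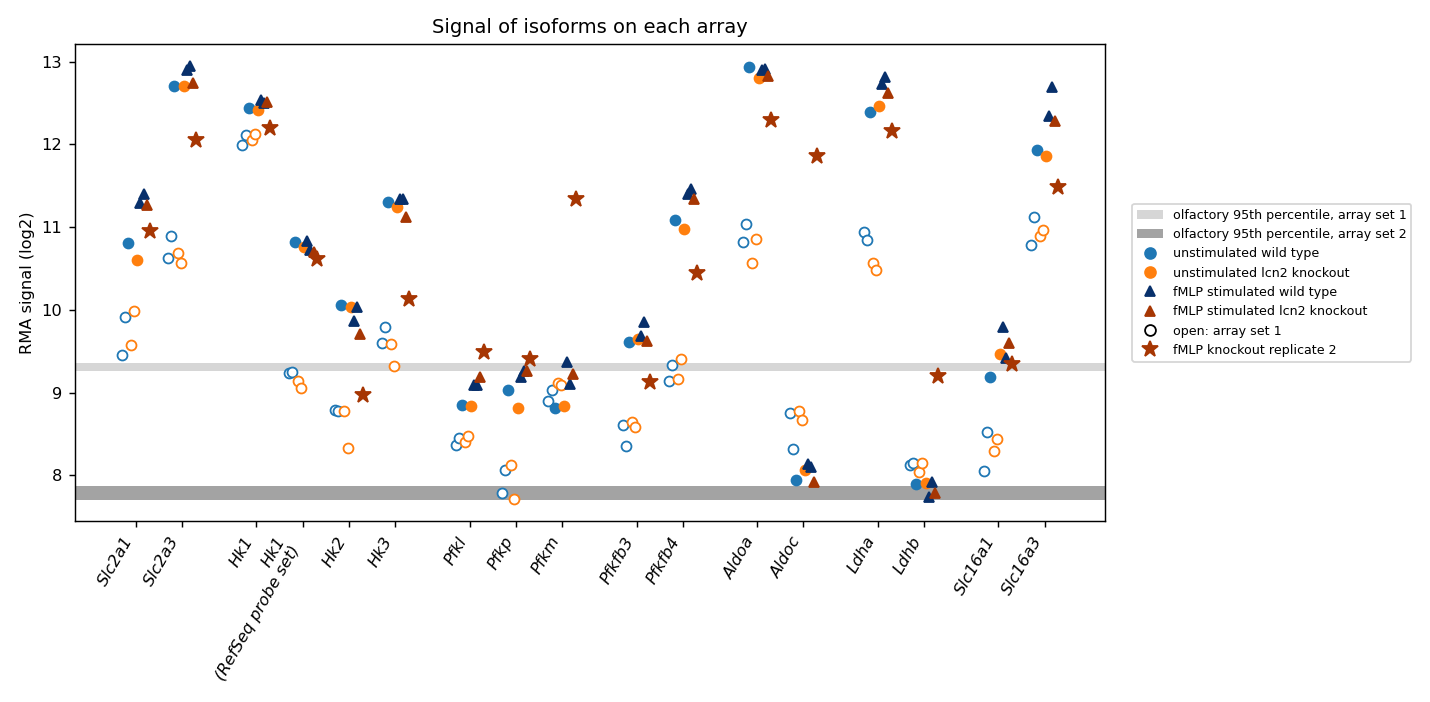
Log2 signal of the isoforms of each step on the 10 arrays, each point 1 array (open for set 1, a star for fMLP knockout replicate 2), with grey bands for the floor of each array set (95th percentile of 1027 olfactory receptor genes). Aldoc and Ldhb sit at the floor on the set 2 arrays, apart from replicate 2 of the fMLP knockout group, where they reached 11.86 and 9.20.

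Both glucose carriers were expressed. Slc2a1 encodes GLUT1, the widespread basal transporter, and Slc2a3 encodes GLUT3, a high-affinity form. On set 2, Slc2a1 lay 2.73 to 3.66 above the floor and Slc2a3 4.34 to 5.21 above it. Both also cleared the floor on the 4 arrays of set 1.

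Of the hexokinases, which trap glucose as its phosphate, Hk3 (a form typical of myeloid cells) lay 2.43 to 3.60 above the floor of set 2 and Hk2 (an inducible form) 1.26 to 2.29. The Hk1 probe set chosen by the highest mean, at 12.20 to 12.54 on set 2, lists no RefSeq transcript, and 16 further Hk1 probe sets are shared with other genes. A second Hk1 probe set that does list RefSeq transcripts read 10.82 and 10.75 on the unstimulated replicate 3 arrays (wild type, then knockout), 10.83 and 10.72 on the fMLP wild type arrays and 10.70 and 10.61 on the fMLP knockout arrays. The level of Hk1 is therefore uncertain, and its fMLP difference without the array that stands apart was 0.09 by the first probe set and -0.05 by the second (0.01 and -0.07 with it).

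Phosphofructokinase, the main control point of glycolysis, is built from liver (Pfkl), platelet (Pfkp) and muscle (Pfkm) subunits, and all 3 genes cleared the set 2 floor. The margin was 0.97 to 1.78 for Pfkl and 0.94 to 1.70 for Pfkp. For Pfkm it was 0.97 to 3.63, the upper end being the array with high neuron markers. None of the 3 cleared the floor on any array of set 1. Of the enzymes that make and remove the activator fructose 2,6-bisphosphate, Pfkfb4 lay 2.74 to 3.72 above the set 2 floor and Pfkfb3 1.43 to 2.12.

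Among the aldolases, Aldoa, the muscle and blood cell form, lay 4.59 to 5.16 above the floor of set 2. Aldoc, the brain form, read 7.94 and 8.06 on the unstimulated replicate 3 arrays, 8.14 and 8.10 on the fMLP wild type arrays and 7.92 and 11.86 on the fMLP knockout arrays. At its lowest it lay 0.06 above the floor of its array, and only the array with high neuron markers was clearly above. Aldoc passed the filter for testing only through that array and set 1, where it read 8.32 to 8.78, below the floor of set 1. Lactate dehydrogenase showed the same split between subunits: Ldha, the form that favours making lactate, lay 4.45 to 5.07 above the floor. Ldhb, the heart-type subunit, read 7.89 and 7.91 in unstimulated replicate 3 cells, 7.74 and 7.92 in fMLP wild type cells and 7.79 and 9.20 in fMLP knockout cells. A second Ldhb probe set read 7.74 to 8.08 on set 2. Both monocarboxylate transporters cleared the floor on set 2, Slc16a3 (MCT4, the exporter of glycolytic cells) by 3.78 to 4.95 and Slc16a1 (MCT1) by 1.38 to 2.01. Pdk1, a kinase that shuts pyruvate dehydrogenase, read 7.79 to 8.20 on set 2, near the floor.

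After 20 minutes of fMLP, Slc2a1, Slc16a3 and Pfkm read higher and Gbe1 lower when replicate 2 of the fMLP knockout group was left out. The compared arrays also differ in Xist. Sex or source of the mice therefore cannot be told apart from fMLP in any fMLP difference given here. With all 10 arrays no listed gene passed the test. In the 10-array limma fit, 0 of 29 genes had a Benjamini-Hochberg adjusted p below 0.05, where 0.341% of all 14070 tested genes did, and 5 (Gbe1, Pfkl, Pfkp, Rpia and Slc2a1) had an unadjusted p below 0.05 (14.6% of all genes). The median difference of the listed genes was -0.04, against -0.02 over all genes. In the 9-array fit 4 of 29 passed (13.8%), against 10.1% of all genes, so the share called was near the background. Higher calls were 3 against 6.36% of all genes and lower calls 1 against 3.79%. The median was 0.07 for the listed genes and -0.01 for all genes. At an unadjusted p below 0.05 there were 10 of 29, against 24.2% of all genes. The 4 calls depended on the few unstimulated arrays of set 2. Without wild type replicate 3 or without knockout replicate 3 of the unstimulated cells 0 of the 4 passed, without fMLP wild type replicate 1 only Slc16a3 did (0.59, adjusted p = 0.0371), and without fMLP wild type replicate 2 only Pfkm (0.47, adjusted p = 0.0382). Replicate 1 of the fMLP knockout group, the only array of its group in the 9-array fit, could not be left out. Leaving out each of the other 8 arrays in turn gave differences of 0.44 to 0.75 for Slc2a1 and 0.41 to 0.59 for Slc16a3. For Pfkm they were 0.34 to 0.47 and for Gbe1 -0.58 to -0.25. Normalizing the 9 arrays again by quantiles, or leaving out the set term, also left 0 calls. In the 10-array fit, dropping fMLP knockout replicate 1 in place of replicate 2 gave 12 calls. A replicate block in place of the set term, which sets the fMLP arrays against set 1, gave 26 calls on 10 arrays and 28 on 9, with many signs turned.

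Of the glucose transporters Slc2a1, on chromosome 4, rose in the 9-array fit. Its signal was 10.81 in wild type and 10.61 in knockout cells of unstimulated replicate 3, 11.30 and 11.41 in the fMLP wild type arrays and 11.26 and 10.96 in the fMLP knockout arrays. All 4 fMLP arrays lay above both unstimulated arrays of their set, the array that stands apart being the lowest of the 4. The difference was 0.60 (SE 0.16, 95% interval 0.24 to 0.96, limma adjusted p = 0.0442) in the 9-array fit and 0.52 (SE 0.18, adjusted p = 0.231) in the 10-array fit. On set 1 the gene read 9.46 to 9.99. Slc2a3 read 12.70 and 12.70 in unstimulated replicate 3 cells, 12.90 and 12.95 in fMLP wild type cells and 12.74 and 12.05 in fMLP knockout cells. Its difference was 0.13 (95% interval -0.11 to 0.37) in the 9-array fit and -0.04 in the 10-array fit, and did not pass the test in either. The difference between the responses of the 2 carriers was not tested. Red cell precursors also use Slc2a1, and 2 of 5 erythroid markers lay higher on the 3 fMLP arrays than on both unstimulated ones, with a mean level of the 5 of 10.42 to 10.93 against 10.31 to 10.32. Their part in the Slc2a1 result was not tested.

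The hexokinases did not pass in either fit. Hk2 read 10.06 and 10.04 in unstimulated replicate 3 cells, 9.87 and 10.03 in fMLP wild type cells and 9.71 and 8.97 in fMLP knockout cells, so all 4 fMLP arrays were below the unstimulated ones, the nearest by a narrow margin. The Hk2 difference was -0.22 (95% interval -0.52 to 0.08) in the 9-array fit and -0.40 in the 10-array fit. Hk3 read 11.30 and 11.25, then 11.34 and 11.34, then 11.12 and 10.13 in the same order of arrays, with the groups overlapping (9-array difference -0.04, 95% interval -0.30 to 0.21, 10-array difference -0.29).

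Among the phosphofructokinase subunits Pfkm rose in the 9-array fit, and all 3 subunit genes had every fMLP array above both unstimulated ones. Pfkm on chromosome 15 read 8.81 and 8.84 in unstimulated replicate 3 cells, 9.37 and 9.11 in fMLP wild type cells and 9.23 and 11.34 in fMLP knockout cells. Its difference was 0.41 (SE 0.11, 95% interval 0.17 to 0.64, limma adjusted p = 0.0384) without the array at 11.34 and 0.94 (SE 0.47, adjusted p = 0.41) with it. Set 1 arrays of unstimulated cells read 8.89 to 9.11 for this gene, close to the lowest of the fMLP arrays. Pfkl read 8.85 and 8.84, then 9.09 and 9.09, then 9.19 and 9.49, a difference of 0.30 (95% interval 0.10 to 0.49, adjusted p = 0.0622) in the 9-array fit and 0.37 (adjusted p = 0.173) in the 10-array fit. Pfkp read 9.03 and 8.81, then 9.19 and 9.27, then 9.26 and 9.40 (9-array difference 0.32, 95% interval 0.01 to 0.63, adjusted p = 0.186, 10-array difference 0.36). These intervals overlap widely, and the subunits were not tested against each other.

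Of the 2 bifunctional control enzymes neither passed. Pfkfb4 read 11.09 and 10.98 in unstimulated replicate 3 cells, 11.40 and 11.46 in fMLP wild type cells and 11.34 and 10.44 in fMLP knockout cells. Its first 3 fMLP arrays were above and the last below both unstimulated ones (9-array difference 0.35, 95% interval 0.11 to 0.60, adjusted p = 0.0723, 10-array difference 0.13 with adjusted p = 0.829). Pfkfb3 read 9.62 and 9.65, then 9.68 and 9.86, then 9.63 and 9.13, with overlapping groups (9-array difference 0.07, 95% interval -0.18 to 0.31, 10-array difference -0.06). Over the 10 tested genes from uptake to the control of phosphofructokinase, 8 differences lay above 0 in the 9-array fit, with a median of 0.21, and 6 in the 10-array fit, with a median of 0.07.

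**Figure D2:**
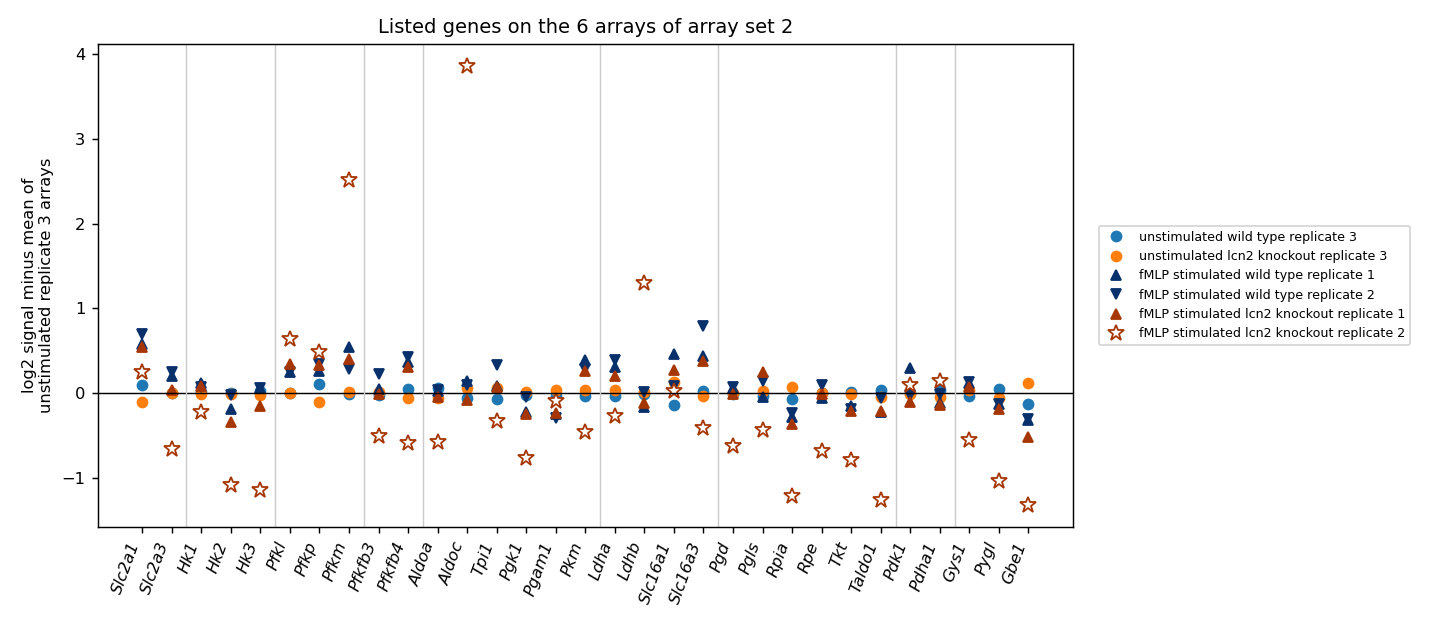
Log2 signal of the 31 measured genes on the 6 arrays of set 2, each point 1 array, minus the mean of the 2 unstimulated replicate 3 arrays, with genes grouped by role along the axis. Slc2a1 lies higher on all 4 fMLP arrays and Gbe1 lower, while replicate 2 of the fMLP knockout group is far above the rest for Pfkm and Aldoc.

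The later steps of glycolysis, from aldolase to pyruvate kinase, held no called gene. Its 6 tested genes were split, with 3 above and 3 below 0 in both fits, and medians of 0.01 (9 arrays) and -0.05 (10 arrays). Aldoa read 12.93 and 12.81 in unstimulated replicate 3 cells, 12.90 and 12.91 in fMLP wild type cells and 12.83 and 12.29 in fMLP knockout cells, with a 9-array difference of -0.0035 (95% interval -0.26 to 0.25) and a 10-array difference of -0.14. Aldoc gave 0.02 without the array that stands apart and 1.01 with it. Pkm, the pyruvate kinase gene, which makes the pathway's last ATP, read 12.32 and 12.39 in unstimulated replicate 3 cells, 12.75 and 12.64 in fMLP wild type cells and 12.62 and 11.90 in fMLP knockout cells. The last of these lay below both unstimulated arrays and the other fMLP arrays above them. Its difference was 0.30 (95% interval 0.10 to 0.50, adjusted p = 0.0646) on 9 arrays and 0.12 (adjusted p = 0.794) on 10. Tpi1, triose phosphate isomerase, gave 0.15 on 9 arrays and 0.04 on 10. Pgk1, phosphoglycerate kinase, gave -0.19 and -0.32 in that order, and Pgam1, phosphoglycerate mutase, gave -0.25 and -0.21, with all 4 fMLP arrays below both unstimulated ones for each. The 25 shared Gapdh probe sets differed by 0.06 to 0.15 on the 3 fMLP arrays, and cannot be assigned to Gapdh alone.

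At the lactate end all 3 tested genes lay above 0 in both fits and 1 of them, Slc16a3 on chromosome 11, rose in the 9-array fit. Slc16a3 read 11.93 and 11.86 in unstimulated replicate 3 cells, 12.34 and 12.69 in fMLP wild type cells and 12.28 and 11.48 in fMLP knockout cells. The first 3 fMLP arrays were above both unstimulated arrays and the last was below both. Its difference was 0.50 (SE 0.13, 95% interval 0.20 to 0.79, limma adjusted p = 0.0407) without that last array and 0.30 (SE 0.22, adjusted p = 0.58) with it. Ldha read 12.39 and 12.46, then 12.73 and 12.81, then 12.62 and 12.16, a 9-array difference of 0.28 (95% interval 0.02 to 0.54, adjusted p = 0.179) and a 10-array difference of 0.16. Slc16a1 read 9.19 and 9.46, then 9.79 and 9.41, then 9.60 and 9.35, with overlapping groups (9-array difference 0.27, 95% interval -0.08 to 0.62, 10-array difference 0.21).

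The pentose phosphate genes held no call, and their medians were -0.08 in the 9-array fit (3 above and 3 below 0) and -0.25 in the 10-array fit (0 of 6 above 0). Rpia, ribose 5-phosphate isomerase, gave -0.31 (95% interval -0.59 to -0.03, adjusted p = 0.158) in the 9-array fit and -0.52 (adjusted p = 0.334) in the 10-array fit. Tkt and Taldo1, the transketolase and transaldolase of the non-oxidative branch, gave -0.19 and -0.17 on 9 arrays and -0.33 and -0.43 on 10, with all 4 fMLP arrays below both unstimulated ones. Pgd and Pgls, of the oxidative branch that makes NADPH, gave 0.03 and 0.15 on 9 arrays and -0.12 and -0.02 on 10. Rpe, an epimerase, gave 0.01 on 9 and -0.16 on 10.

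Of the glycogen genes the branching enzyme Gbe1 on chromosome 16 fell in the 9-array fit. It read 10.52 and 10.76 in unstimulated replicate 3 cells, 10.32 and 10.33 in fMLP wild type cells and 10.12 and 9.32 in fMLP knockout cells. All 4 fMLP arrays lay below both unstimulated ones, the array that stands apart lowest. The difference was -0.41 (SE 0.10, 95% interval -0.64 to -0.19, limma adjusted p = 0.0315) in the 9-array fit and -0.61 (SE 0.20, adjusted p = 0.212) in the 10-array fit. Of the 9 arrays, leaving out unstimulated wild type replicate 3 gave -0.58 (adjusted p = 0.0881) and leaving out unstimulated knockout replicate 3 gave -0.25 (adjusted p = 0.443). Its set 1 arrays read 7.59 to 7.70, below the floor of that set, and without the set term the 9-array difference was 1.58 and not called. The phosphorylase Pygl, which breaks glycogen down, gave -0.16 (95% interval -0.41 to 0.09) on 9 arrays and -0.37 on 10, and the synthase Gys1 gave 0.10 (95% interval -0.30 to 0.50) and -0.05. Pdha1, a pyruvate dehydrogenase subunit that passes pyruvate to the mitochondrion, gave -0.10 on 9 arrays and -0.03 on 10.

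**Figure D3:**
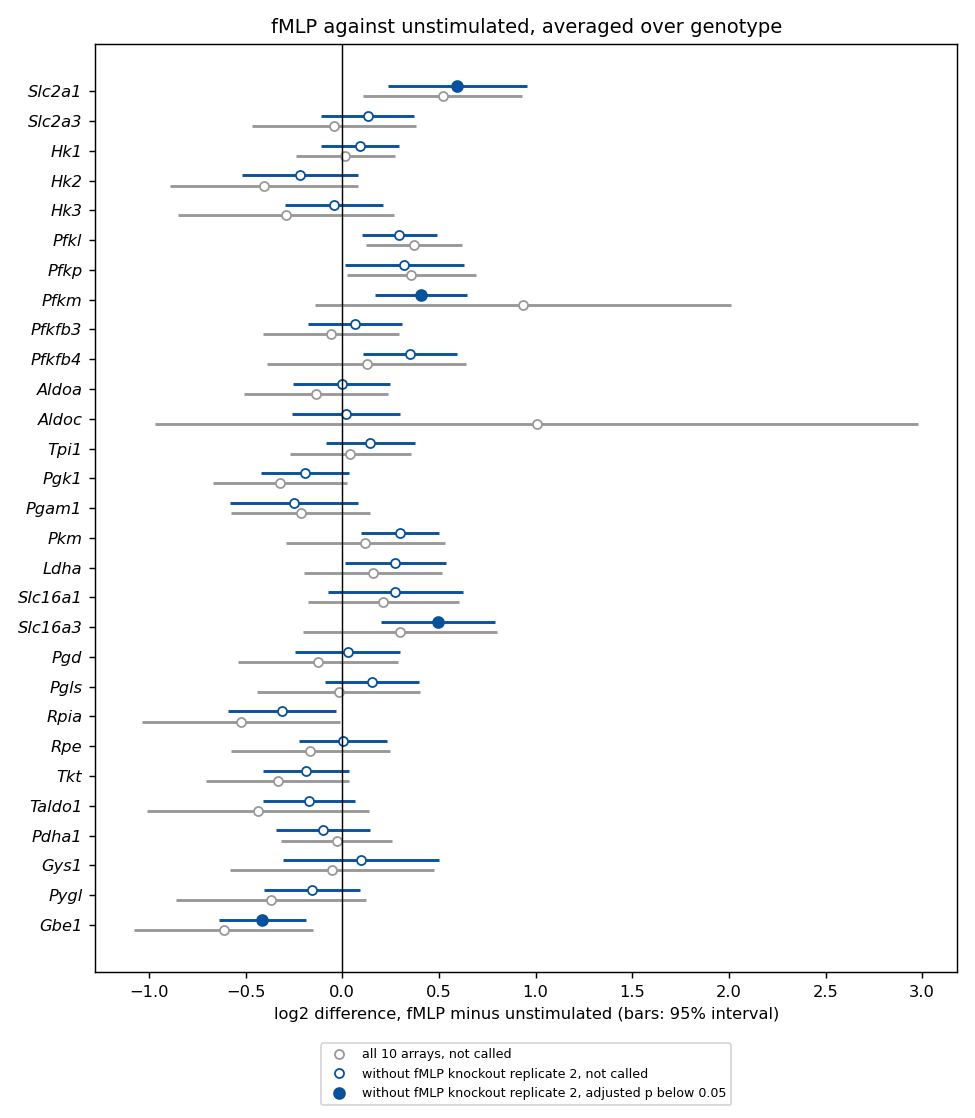
fMLP minus unstimulated log2 difference of the 29 tested genes, averaged over genotype, with 95% intervals, from the 10-array fit and from the 9-array fit without fMLP knockout replicate 2. Slc2a1 (0.60), Slc16a3 (0.50), Pfkm (0.41) and Gbe1 (-0.41) passed in the 9-array fit, and no gene passed in the 10-array fit.

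Counted array by array without a model, 12 of 29 genes had the first 3 fMLP arrays all above both unstimulated replicate 3 arrays (41.4%, against 26.8% of all genes). They were Slc2a1, Slc2a3, Hk1, Pfkl, Pfkp, Pfkm, Pfkfb4, Tpi1, Pkm, Ldha, Slc16a3 and Gys1. Below both lay 8 (27.6%, against 28.7%): Hk2, Pgk1, Pgam1, Rpia, Tkt, Taldo1, Pygl and Gbe1. With the fourth fMLP array included, 4 stayed above (13.8%, against 11.9%), namely Slc2a1, Pfkl, Pfkp and Pfkm, and the same 8 stayed below (27.6%, against 20.2%). Between wild type and knockout replicate 1, 23 of 29 differences had the same sign (79.3%, against 77.2%).

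Other marker lists moved between the same arrays. On the 3 fMLP arrays of the 9-array fit all 7 eosinophil markers lay below both unstimulated replicate 3 arrays (median difference -1.21, mean level 8.30 to 8.58 against 10.03 to 10.04), as did 7 of 7 monocyte and macrophage markers (-1.57; 8.81 to 9.18 against 10.06 to 10.58). The same held for 4 of 4 primary granule genes of immature neutrophils (-0.87), for 4 of 5 basophil and mast cell markers (-0.63) and for 4 of 5 proliferation genes (-0.21). T and NK cell markers lay above in 6 of 6 cases (0.83; 8.25 to 8.85 against 7.52 to 7.74), and B cell markers above in 4 and below in 2 of 7. Of 10 neutrophil markers 2 lay above and 3 below (-0.06), and of 10 immediate early genes, which activation induces within minutes, 9 lay above (1.77). The part of these cell types in the differences of Slc2a1, Slc16a3, Pfkm and Gbe1 was not tested. Beyond these lists, Xist read 10.97 to 11.12 on the same 3 fMLP arrays and 6.88 to 6.94 on the unstimulated replicate 3 arrays. The part of what sets Xist apart was not tested either.

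Replicate 2 of the fMLP knockout group carried lower signal for most of the pathway, and much higher signal for the brain aldolase Aldoc and the muscle subunit Pfkm. Against the other 3 fMLP arrays it was the lowest for 23 of 29 genes (79.3%, against 52.7% of all genes), with a median deviation of -0.59 against -0.11 for all genes. It was the highest for 6 (20.7%, against 32.4%): Pfkl, Pfkp, Pfkm, Aldoc, Pgam1 and Pdha1. Aldoc deviated by 3.81, Pfkm by 2.10 and the untested Ldhb by 1.39, while the second Ldhb probe set deviated by 0.27. The lowest deviations were those of Hk3, -1.13, and Taldo1, -1.09. Pgam1 was higher by 0.17 with the probe set used and -0.06 with its other ones. Beside these, the neuron markers deviated by a median of 3.53 (14 of 14 above the other fMLP arrays), and 9 of the 14 lay at or below the floor on all the other arrays. Astrocyte and oligodendrocyte markers lay above in 6 of 7 cases (0.43), and neutrophil markers deviated by -0.45. The part of these cell types in the 10-array values was not tested.

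**Figure D4:**
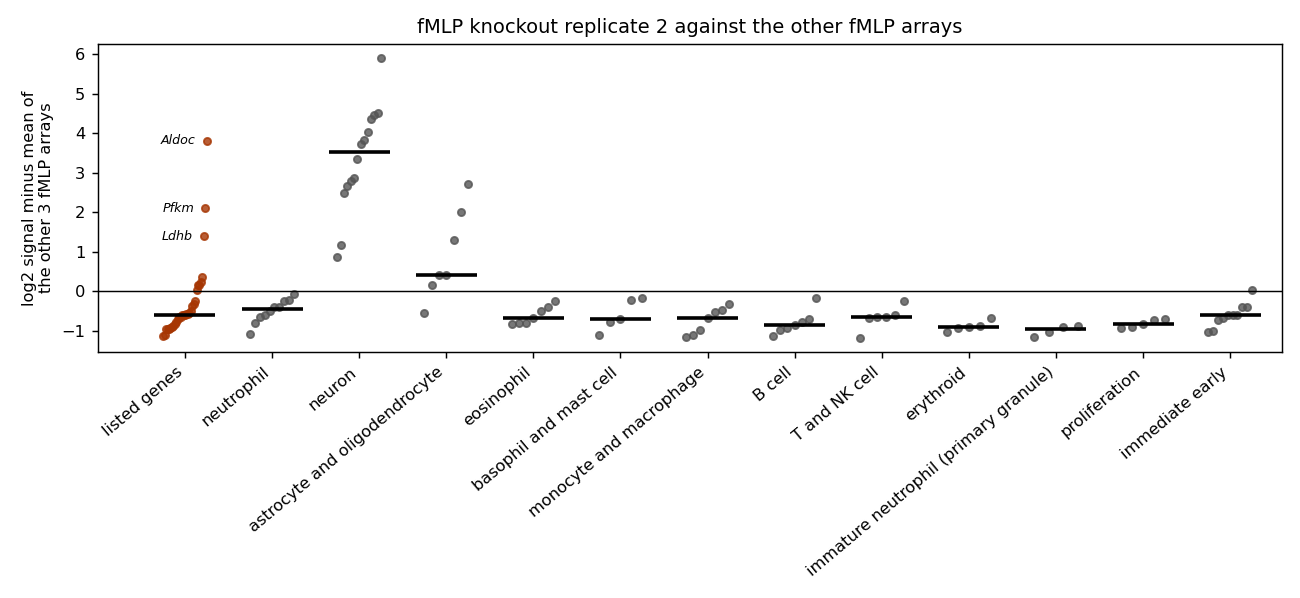
Deviation of fMLP knockout replicate 2 from the mean of the other 3 fMLP arrays (log2) for the 31 measured genes and for each list of cell type markers, each point 1 gene and each bar the median of its list. Aldoc (3.81) and Pfkm (2.10) lie within the range of the neuron markers. Pfkm also lies within that of the astrocyte and oligodendrocyte markers, of which Slc1a2 (2.72) is the highest. Most of the other measured genes lie below 0.

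No difference between the genotypes was called among these genes. In unstimulated cells 0 of 29 passed in either limma fit, against 0.00711% of all genes, and the number at an unadjusted p below 0.05 was 0 in the 10-array fit (0.533% of all genes) and 1 in the 9-array fit (3.48%), Pygl (-0.24, adjusted p = 0.994). Differences of knockout minus wild type ran from -0.24 to 0.17, with a median of -0.03 against 0.01 over all genes. Their 95% intervals in the 9-array fit reached from -0.51 to 0.45 at the most. Slc2a1 differed by -0.003, Slc16a3 by -0.04, Pfkm by 0.10 and Gbe1 by 0.02.

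After fMLP, knockout and wild type cells also gave 0 of 29 calls in either fit, against 0.00711% of all genes. In the 9-array fit the fMLP knockout group is 1 array, which is assumed to vary like the other groups, so its comparisons with that group rest on this array. In the 10-array fit Gbe1, Hk2, Hk3, Slc16a3 and Slc2a3, 5 in all, reached an unadjusted p below 0.05 (8.4% of all genes), and 0 did so in the 9-array fit (1.81%). The median was -0.37 with replicate 2 and -0.07 without it, against -0.05 and -0.0046 for all genes. Within wild type cells alone, fMLP gave 0 of 29 calls in both fits (0.0782% and 5.15% of all genes), and 1 and 8 genes had an unadjusted p below 0.05 (8.05% and 19.9% of all genes). The smallest adjusted p in the 9-array fit was that of Slc16a3 (0.60, adjusted p = 0.0525). In knockout cells alone it gave 0 of 29 (0.0853% and 2.15% of all genes), with 7 and 4 at an unadjusted p below 0.05 (14.7% and 16.1%), Gbe1 having the smallest in the 9-array fit (-0.53, adjusted p = 0.0908). The responses themselves were tested against each other, and 0 of 29 differed between the genotypes in either limma fit (0% of all genes). An unadjusted p below 0.05 was reached by 0 of 29 in both, against 1.83% and 0.888% of all genes. In the 9-array fit the difference of responses (knockout minus wild type) was -0.09 for Slc2a1, -0.20 for Slc16a3, -0.11 for Pfkm and -0.23 for Gbe1. In the 10-array data, leaving out fMLP knockout replicate 1 in place of replicate 2 gave 19 calls for the fMLP response of knockout cells, 23 between the genotypes after fMLP and 18 for the difference of responses.

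In the wider pathway 4 genes passed the test in the 9-array fit, of which Bpgm and Pklr rose and Mpc1 and Ugp2 fell. Of 84 further genes of glucose transport, glycolysis, glucose release, pyruvate entry, pentose phosphates, glycogen and their control, 79 were measured and 59 tested. In the 10-array limma fit 0 passed (0.341% of all genes) and 9 had an unadjusted p below 0.05 (14.6% of all genes). In the 9-array fit 2 were higher and 2 lower (6.78%, against 10.1% of all genes), with a median of 0.06. Bpgm, which makes the 2,3-bisphosphoglycerate of red cells, read 7.64 and 7.76 in unstimulated replicate 3 cells, 8.91 and 8.47 in fMLP wild type cells and 8.73 and 8.42 in fMLP knockout cells. All 4 fMLP arrays were above, and the difference was 1.01 (SE 0.14, adjusted p = 0.00269) in the 9-array fit and 0.93 (adjusted p = 0.0651) in the other. Its set 1 arrays read 7.98 to 8.28, below the floor of that set (9.26 to 9.36). On the unstimulated replicate 3 arrays Bpgm also lay below the floor (7.81 wild type, 7.87 knockout), and on the 4 fMLP arrays above it. Pklr, the pyruvate kinase gene of liver and red cells, rose by 0.60 (SE 0.14, adjusted p = 0.0259) on 9 arrays. It read 9.34 and 9.58 in unstimulated replicate 3 cells, 10.34 and 9.88 in fMLP wild type cells and 10.00 and 9.27 in fMLP knockout cells, the last below both unstimulated ones, and the 10-array difference was 0.41 (adjusted p = 0.424). The erythroid marker levels given beside Slc2a1 apply here too, and their part was not tested. Mpc1, a subunit of the mitochondrial pyruvate carrier, fell by 0.60 (SE 0.12, adjusted p = 0.0156) on 9 arrays, with -0.72 (adjusted p = 0.117) on 10, and Ugp2, which makes the UDP-glucose that glycogen synthase uses, fell by 0.39 (SE 0.09, adjusted p = 0.0267) on 9, with -0.54 (adjusted p = 0.184) on 10. For both, all 4 fMLP arrays lay below both unstimulated ones.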

How the data were processed

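Values were the deposited log2 signals of 10 Affymetrix Mouse Gene ST arrays, made by the authors with RMA in Affymetrix Expression Console, per the submitters' processing notes. The log base was taken from the range of the values. A common processing run of the arrays is not given in the sources used here. Array annotation names 1 gene for 21789 of 35556 probe sets and several for 1621.

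Genes with at least 2 arrays above the median of all values (14070) were fitted with limma (version 3.58.1, under R 4.3.3), using 4 group means and an array set term, moderated variances, two-sided tests and Benjamini-Hochberg adjustment over all tested genes. The procedure was tested on simulated data. The simulated differences were larger than those of the listed genes called in the 9-array fit, and no simulated array stood apart. Residual degrees of freedom were 5 (10 arrays) and 4 (9 arrays). The fMLP difference averages the genotypes equally, and a difference within 1 genotype takes in set 1 arrays too. The precision is limited by how few arrays there are. No 2 arrays were identical.

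The listed genes, the gene lists and the tests were chosen with earlier results of these data known. Values for every array were given for genes called in the averaged fMLP comparison and for the isoform families. Other genes of the pathway were named where called.

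Replicate numbers are shared between groups. Deviations from the group means correlated at 0.949, 0.929 and 0.988 for unstimulated replicates 1 to 3, which also lie in the same array set, at 0.464 for replicates 1 and 2 within set 1, and at 0.0598 for fMLP replicates. As 1 of these is below 0.1 and no label ties the numbers, they were not taken as pairs. That low value takes in fMLP knockout replicate 2, the array that stands apart, so it cannot decide whether fMLP replicates were paired.

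Alternatives were no set term, set 2 only, a replicate block, quantile normalization, median centring, other filters, probe set means, a variance trend, array weights and each array left out. On the 9 arrays, fMLP knockout replicate 1 could not be left out of comparisons that use its group. The alternatives on the 9 arrays and the other Hk1 probe set were added after seeing the data.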

Additional observations from a re-analysis of the deposited data

How the results depend on the processing

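No result turned on a choice of filter or scale in the 10-array data, where 0 of the 29 genes were called for the averaged fMLP difference. The exceptions were array weights (2, Gbe1 and Pfkm), the replicate block (26) and leaving out 1 array (0 to 12, with 12 without fMLP knockout replicate 1 and 4 without replicate 2). For wild type cells the count was 9 with array weights and 26 with the block, and for knockout cells 25 with the block. Leaving out 1 array gave 0 to 19 for knockout cells, 0 to 23 between genotypes after fMLP and 0 to 18 for the difference of responses, the upper ends without fMLP knockout replicate 1. In the 9-array data the 4 calls became 0 without the set term, 11 on set 2 only (1 residual degree of freedom), 28 with the replicate block, 0 after quantile normalization, 3 after median centring, 1 without a filter and 0 to 6 when leaving out 1 array. For wild type cells they became 3 on set 2 only, 28 with the block and 0 to 1 with 1 array left out, and for knockout cells 2 and 28. Over all genes the called number for the averaged 9-array difference was 1428, against 7 without the set term, 3119 on set 2 only, 63 after quantile normalization and 91 to 1788 when leaving out 1 array. In the 10-array data it was 48, against 10, 0 and 36 under the first 3 of these, 77 with a variance trend and 765 with array weights.

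The replicate block cannot be fitted beside the set term, so it compares fMLP arrays with set 1 arrays of the same number. Signs then turned for 17 genes in the 10-array data, 16 of them with a call under the block: Aldoa 1.91, Gbe1 2.38, Gys1 2.14, Hk2 0.97, Hk3 1.41, Pdha1 0.85, Pfkfb3 1.03, Pgam1 2.17, Pgd 1.64, Pgk1 2.20, Pygl 1.81, Rpe 1.57, Rpia 1.20, Slc2a3 1.97, Taldo1 1.32 and Tkt 2.09. They turned for 12 in the 9-array data, all with a call under the block: Aldoa 2.09, Aldoc -0.66, Gbe1 2.58, Hk2 1.13, Hk3 1.65, Pdha1 0.76, Pgam1 2.09, Pgk1 2.33, Pygl 2.00, Rpia 1.39, Taldo1 1.58 and Tkt 2.21. Without the set term 12 signs turned on 9 arrays. Among these only Gbe1 was called in the main fit (-0.41), and at 1.58 without the term it was not called (limma adjusted p = 0.222). On 10 arrays 17 signs turned, with 0 calls among them. The array sets differed by up to 2.99 in unstimulated cells. Under the other settings 0 to 6 signs turned on 10 arrays and 0 to 4 on 9, with 0 calls among them. The block changed no call between genotypes in unstimulated cells, which stayed at 0 under every alternative run.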
